A study of Homo sapiens with 12 samples.

Results

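The fatty acid binding proteins FABP1 to FABP7 were followed in CAOV3 cells, an established human cell line described by the submitters as epithelial and of the high-grade serous type, of ovarian origin. The members were the rows whose gene symbol was FABP1, FABP2, FABP3, FABP4, FABP5, FABP6 or FABP7, and all 7 were found among the 19677 genes listed. RNA was sequenced in 12 libraries, which formed 4 groups of 3: a control with DMSO, 10% ovarian cancer ascites with DMSO, bezafibrate at 200 uM, and the combination of that dose with 10% ascites. All groups shared a wild-type (WT) genotype and DMEM with 10% fetal bovine serum, and the 3 treated groups were exposed for 16 hours, while the label of the control libraries states no time. DMSO, the solvent, is named only for the groups without bezafibrate, so a difference in solvent and the drug cannot be told apart. The labels do not say whether replicates were separate cultures or whether the ascites had 1 source, and p-values here measure the spread between these libraries, which may be technical.

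FABPs are small cytosolic proteins that fold into a barrel around a cavity, where they hold long-chain fatty acids, eicosanoids or bile acids and carry them between membranes, mitochondria, lipid droplets and the nucleus. Several of them hand ligands to the peroxisome proliferator-activated receptors (PPARs), nuclear receptors that pair with RXR on DNA and switch on genes of fatty acid use and storage. FABP1, FABP3 and FABP4 are known PPAR target genes, bezafibrate is a fibrate that activates PPARs, and ascites is the lipid-containing fluid that collects in the abdomen in ovarian cancer. In ovarian cancer FABP4 is best known from adipocytes of the omentum and from tumour cells that take up their fatty acids.

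Total counts per library ran from 11831093 to 18762759. Of the keratins of simple epithelium, KRT8 stood at 3005 CPM (the count scaled by TMM library size) and KRT18 at 1784 CPM in control cells, whereas markers of serous lineage were at or near 0: SOX17 had no count, MUC16 had 10 counts and WT1 had 15 counts over the 12 libraries, and PAX8 averaged 0.378 CPM in control cells. Of the 10 markers of this list 6 were tested, and 3 rose with bezafibrate alone and 2 with ascites present. Among all genes tested, 10.1% were called higher with bezafibrate alone and 10.5% with ascites present. CDH1, the adhesion protein E-cadherin, rose from 18.6 to 53.3 CPM (log2 fold change 1.52, and 1.69 with ascites), and KRT7 from 762 to 1118 CPM (0.55 and 0.57). PAX8 rose to 1.11 CPM with bezafibrate alone (1.48, edgeR adjusted p = 0.0252), a call lost without control replicate 2 (0.0619) or 3 (0.170), without bezafibrate replicate 1 (0.0914) or 2 (0.0509), and in DESeq2 (0.0786). Their part in the results on FABP genes was not tested. The replicates of the combination group were farther apart than those of the other groups, with a chi-square per degree of freedom of 4.45 between replicates 1 and 3 against 1.44 for the closest pair of replicates in the series.

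Of the 7 members, 5 were expressed, here meaning a mean of at least 1 CPM in 1 or more groups: FABP1, FABP3, FABP4, FABP5 and FABP6. The same 5 passed the filter on low counts, and each of them had counts in all 12 libraries. FABP5 (chr8:81280536-81284775, plus strand, GRCh38.p14), the epidermal FABP that many carcinomas express, collected 5055 to 11856 counts per library. FABP4 (chr8:81478419-81483233, minus strand), the adipocyte and macrophage FABP, collected 757 to 14810. FABP3 (chr1:31359588-31373076, minus strand), the heart and muscle FABP, had 307 to 1852 counts and FABP1 (chr2:88122982-88128062, minus strand), the liver FABP, had 45 to 210. FABP6 (chr5:160187381-160238722, plus strand), the ileal bile acid binding protein, was thinly covered, with 14 to 31 counts. Values for whole genes were counted, so exons and introns or UTRs of these genes are not separated.

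The remaining 2 members were not tested. FABP2 (chr4:119317250-119322138, minus strand), the intestinal FABP, had 1 count in the 12 libraries, in the combination group. In the groups where it had no count, its level could still be up to 0.0734 CPM in control cells, 0.0719 CPM with ascites and 0.0603 CPM with bezafibrate, the level of 3 counts over the group, a limit that covers counting error only. FABP7 (chr6:122749201-122784074, plus strand), the brain FABP, had 13 counts in all, spread over 8 libraries with at most 3 in any of them. Its mean was 0.0490 CPM in control cells, 0.0982 with ascites, 0.101 with bezafibrate and 0.0391 with both, all near the level of 3 counts.

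**Figure D1:**
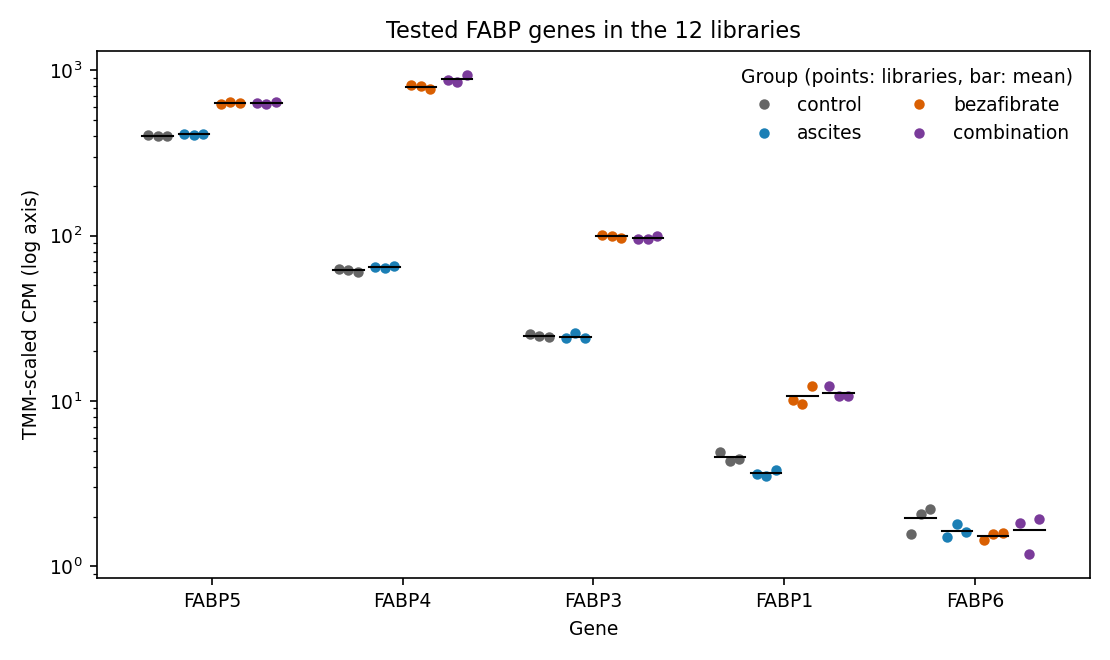
TMM-scaled CPM (log axis) of the 5 tested members, with 1 point for each of the 12 libraries and a short line at each group's mean (n = 3). FABP5, FABP4, FABP3 and FABP1 lie higher in every library with bezafibrate than in any library without it, and FABP6 lies between 1.19 and 2.22 CPM throughout. How many of all genes separate in this way was not counted for the drug contrasts.

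With bezafibrate alone, 4 of the 5 tested members rose and none fell. Across all 12470 genes tested, 10.1% were called higher (1257 genes) and 7.55% lower (942 genes) at an adjusted p under 0.05 in edgeR's quasi-likelihood test with Benjamini-Hochberg adjustment. The median log2 fold change was 1.21 over the 5 tested members and -0.0037 over all genes tested. FABP4 changed most, then FABP3, FABP1 and FABP5, while FABP6 was not called. Groups that did not overlap are given below for single members, but the share of all genes that did so was not computed here. For ascites against control that share was 12.7% of all genes tested.

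FABP4, which also marks adipocytes and macrophages, stood at 62.7, 62.1 and 60.0 CPM in the 3 control libraries and at 816, 797 and 772 CPM in the 3 bezafibrate libraries. The groups were far apart, with no control library above 62.7 CPM and no bezafibrate library under 772 CPM. The group means were 61.6 ± 1.40 and 795 ± 22.0 CPM (SD, n = 3 each), a 12.9-fold rise with a 95% interval of 12.2 to 13.6. On the log2 scale that is 3.69 (SE 0.0389, edgeR adjusted p = 1.88e-40). Among the 2163 genes called in this contrast with a mean of at least 1 CPM, FABP4 ranked 3 by log2 fold change, from the highest.

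FABP3, which carries fatty acids toward oxidation in muscle, stood at 25.4, 24.8 and 24.4 CPM in the control libraries and at 100.4, 99.7 and 97.0 CPM in the bezafibrate libraries. The groups did not overlap, and the replicates within each lay within 4 CPM of each other. The means were 24.8 ± 0.506 and 99.0 ± 1.80 CPM (SD, n = 3 each), a rise of 3.98-fold (95% interval 3.70 to 4.28). The log2 fold change was 1.99 (SE 0.0516, edgeR adjusted p = 1.69e-27), which ranked 21 of the 2163 genes.

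FABP1, the hepatocyte carrier of fatty acids and bile acids, was low in control cells at 4.91, 4.33 and 4.44 CPM. With bezafibrate it reached 10.1, 9.58 and 12.4 CPM, and every bezafibrate library lay above every control library. Means were 4.56 ± 0.305 and 10.7 ± 1.49 CPM (SD, n = 3 each), a 2.32-fold rise (95% interval 1.93 to 2.79). The log2 fold change was 1.21 (SE 0.132, edgeR adjusted p = 2.57e-09).

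FABP5, the family member with the highest level in control cells, stood at 407, 397 and 401 CPM in control libraries and at 621, 638 and 637 CPM with bezafibrate. Its groups were also apart. The means were 402 ± 5.18 and 632 ± 9.23 CPM (SD, n = 3 each), and the rise was 1.57-fold (95% interval 1.51 to 1.63). On the log2 scale it was 0.65 (SE 0.0271, edgeR adjusted p = 7.97e-21), rank 239 of the 2163 genes. RefSeq names 15 pseudogenes of FABP5, against 1 for FABP3, 2 for FABP7 and 0 for FABP1 or FABP4, so reads of FABP5 could be shared with near-identical copies and its values are uncertain in that respect.

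FABP6, which carries bile acids in ileal enterocytes, stood at 1.57, 2.06 and 2.22 CPM in control cells and at 1.45, 1.56 and 1.58 CPM with bezafibrate. The groups overlapped. The means were 1.95 ± 0.340 and 1.53 ± 0.0720 CPM (SD, n = 3 each), and the log2 fold change was -0.34 (SE 0.255, edgeR adjusted p = 0.432), with a 95% interval of -0.86 to 0.18 that runs from a fall to a small rise. At 14 to 31 counts per library the depth could not show a difference of this size or smaller. Exons of FABP6 share 109 of 872 bases with an antisense RNA on the other strand (FABP5 shares 14 of 1298), and strandedness of the counting is not given in the sources used here, so reads of the partners cannot be told apart.

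**Figure D2:**
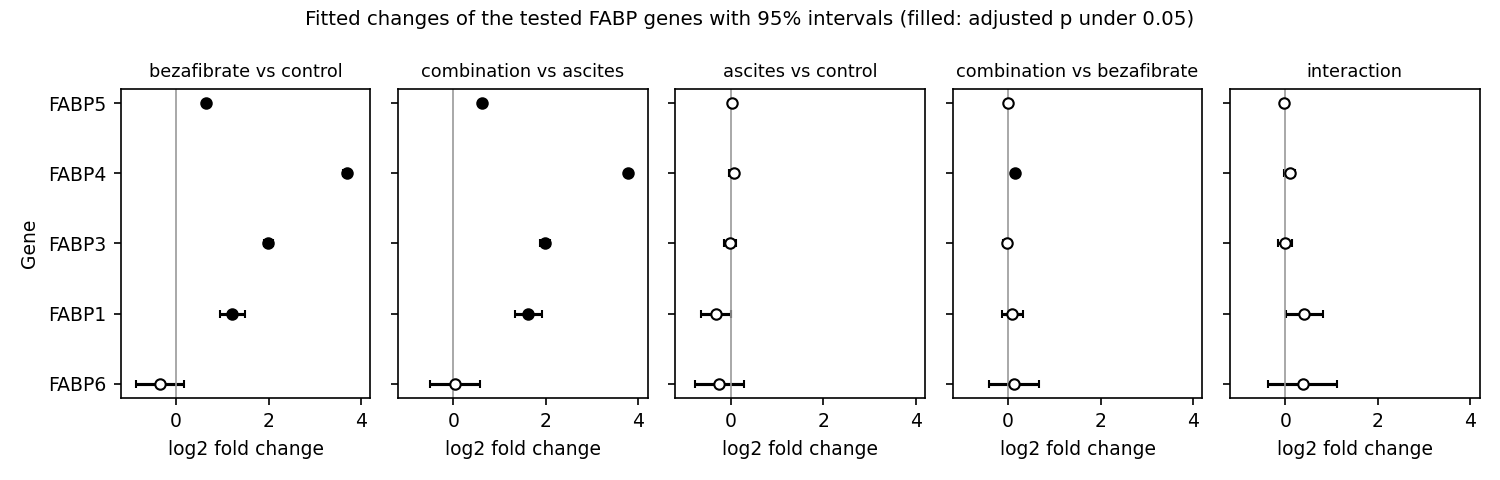
Log2 fold change of the 5 tested members in each of the 5 contrasts, 1 panel per contrast, with 95% intervals and filled points where the adjusted p was under 0.05; for the interaction the axis is a difference of log2 fold changes. FABP4, FABP3, FABP1 and FABP5 are filled and above 0 in both contrasts that add bezafibrate, and all 5 intervals include 0 for ascites against control.

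In the presence of ascites, the 4 members that rose with the drug alone rose again, and FABP6 was not called. Here the background was 10.5% of genes called higher (1305) and 7.29% lower (909) in the combination against ascites alone. The median log2 fold change was 1.62 over the 5 tested members and -0.0037 over all genes tested. These contrasts use different control libraries, ascites alone in place of DMSO alone, and they share none with each other. The share of all genes whose groups did not overlap was not computed for the combination against ascites either.

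FABP4 was 64.3, 63.5 and 65.2 CPM with ascites alone and 867, 849.7 and 938 CPM with both, means of 64.3 ± 0.855 and 885 ± 46.7 CPM (SD, n = 3 each). The third combination library, at 938 CPM, was the highest of the 12, and the groups did not overlap. The rise was 13.8-fold (95% interval 13.02 to 14.5), or 3.78 on the log2 scale (SE 0.0387, edgeR adjusted p = 6.52e-41), rank 2 of 2177 called genes with at least 1 CPM.

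FABP3 was 23.99, 25.6 and 23.9 CPM with ascites and 95.9, 94.9 and 99.9 CPM with both. The rise was 3.96-fold (95% interval 3.68 to 4.26) in groups that did not overlap, or 1.98 on the log2 scale (SE 0.0526, edgeR adjusted p = 3.43e-27). FABP1 was 3.63, 3.51 and 3.84 CPM with ascites and 12.3, 10.7 and 10.6 CPM with both. Every library of the combination stood above every ascites library for FABP1. The rise was 3.08-fold (95% interval 2.53 to 3.74), or 1.62 on the log2 scale (SE 0.139, edgeR adjusted p = 7.76e-12).

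FABP5 was 413, 407 and 409 CPM with ascites and 635, 625 and 637 CPM with both. The rise was 1.54-fold (95% interval 1.49 to 1.61), or 0.63 on the log2 scale (SE 0.0273, edgeR adjusted p = 2.72e-20), and the groups were apart. FABP6 stood at 1.50, 1.80 and 1.62 CPM with ascites and at 1.82, 1.19 and 1.94 CPM with both, and the groups overlapped. Its log2 fold change was 0.03 (SE 0.268, edgeR adjusted p = 0.963).

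Ascites without the drug was called for none of the 5 tested members, in a contrast where 0.0882% of genes were called (11 genes, all lower). At an unadjusted p under 0.05, 749 of the 12470 genes stood in this contrast, and the median log2 fold change was -0.02 over the members and -0.0018 over all genes. FABP1 showed the lowest p: 4.91, 4.33 and 4.44 CPM in control libraries lay above 3.63, 3.51 and 3.84 CPM with ascites. That log2 fold change was -0.32 (SE 0.163, 95% interval -0.65 to 0.01), with an unadjusted p of 0.0599 and an edgeR adjusted p of 0.847. FABP4 libraries did not overlap either, at 60.0 to 62.7 CPM in control cells and 63.5 to 65.2 CPM with ascites, and its log2 fold change was 0.06 (SE 0.0470, adjusted p = 0.923 in edgeR). Groups that do not overlap in this contrast, in either direction, were 12.7% of all genes tested, against FABP1 and FABP4 of 5 members. The log2 fold changes of FABP3 (-0.02), FABP5 (0.03) and FABP6 (-0.25) had adjusted p of 0.987, 0.951 and 0.951 in edgeR.

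With bezafibrate present, FABP4 was called higher with ascites added, at 885 ± 46.7 against 795 ± 22.0 CPM (SD, n = 3 each). No other member was called. FABP4 was thus 1 of 5 tested members, in a contrast where 0.0401% of genes were called higher (5 genes). The bezafibrate libraries stood at 816, 797 and 772 CPM and the combination libraries at 867, 849.7 and 938 CPM. These groups did not overlap, but the share of all genes that did so was not computed for this contrast. In ascites against control it was 12.7% of all genes tested. The rise was 1.11-fold (95% interval 1.07 to 1.16), or 0.15 on the log2 scale (SE 0.0308, edgeR adjusted p = 0.0152). Among the 19 other settings tried the call held in 15: it was lost with only the 2 groups in the fit (adjusted p = 0.306 in edgeR), without bezafibrate replicate 2 (0.117), without bezafibrate replicate 3 (0.255) and without combination replicate 3 (0.0501). The other 4 tested members had adjusted p of 0.9998 in edgeR, with log2 fold changes of 0.09 (FABP1), -0.03 (FABP3), 0.0011 (FABP5) and 0.12 (FABP6).

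The interaction asked whether the response to bezafibrate differed with ascites present, and it was called for none of the 5 members and for 0% of all genes (0 of 12470). In edgeR 445 genes had an unadjusted p under 0.05, and DESeq2 called 1 gene. FABP1 had a difference of 0.41 between its log2 responses (SE 0.198, 95% interval 0.01 to 0.81), an unadjusted p of 0.0469 and an edgeR adjusted p of 0.999. Its rise was 2.32-fold without ascites and 3.08-fold with it. Its mean without the drug was lower with ascites, a difference that was not called (edgeR adjusted p = 0.847). For FABP4 the difference was 0.09 (95% interval -0.02 to 0.21), for FABP3 -0.01 (-0.17 to 0.15), for FABP5 -0.03 (-0.10 to 0.05) and for FABP6 0.37 (-0.38 to 1.12).

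**Figure D3:**
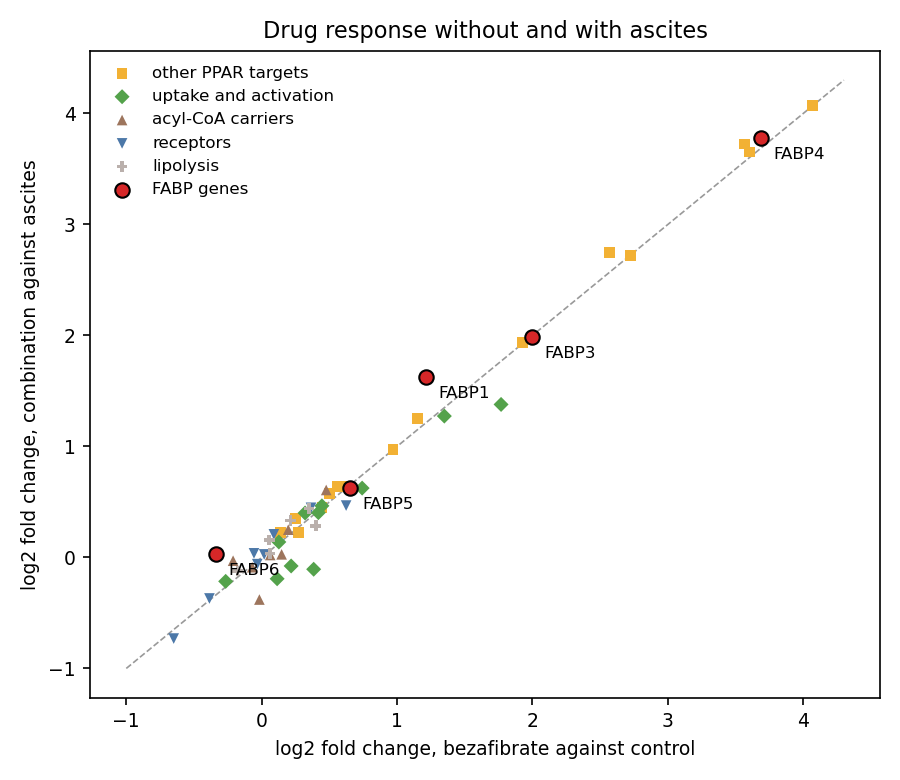
Log2 fold change with bezafibrate without ascites (horizontal axis) against that with ascites (vertical axis), for the 5 tested members (red circles) and the tested genes of 5 lists (other symbols), with a dashed line of equal change and no error bars. FABP4, FABP3 and FABP5 lie close to the line, and FABP1 lies above it, at 1.21 and 1.62.

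To set levels of different members side by side, CPM were divided by the median length of each gene's GENCODE 29 basic transcripts, 725 bases for FABP3, 941 for FABP4 and 918.5 for FABP5. FABP5 led in control cells at 437 CPM per kilobase, followed by FABP4 at 65.5, FABP3 at 34.3, FABP1 at 3.81 and FABP6 at 2.93. In the bezafibrate group FABP4 came first at 845 CPM per kilobase, ahead of FABP5 at 688, FABP3 at 137, FABP1 at 8.91 and FABP6 at 2.30. The ratio of FABP4 to FABP5 was 0.150 ± 0.00329 in control libraries and 1.23 ± 0.0497 with bezafibrate (SD, n = 3 each). It was above 1 in each of the 6 libraries with the drug, from 1.18 to 1.28 with bezafibrate alone and from 1.33 to 1.44 with both. FABP1 has transcripts of 555 to 1839 bases, and in control cells its order against FABP6 rests on the transcript chosen: over its longest transcript FABP1 was at 2.48 CPM per kilobase, and FABP6 over its shortest at 3.41. With bezafibrate the same lengths gave 5.80 for FABP1 and 2.67 for FABP6, so the order held.

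Summed over the 7 members, the level per length was 544 ± 6.62 CPM per kilobase in control cells and 553 ± 2.32 with ascites. It was 1681 ± 17.9 with bezafibrate and 1775 ± 59.4 with both (SD, n = 3 each). FABP5 made up 80.4% of the sum in control cells and 40.9% with bezafibrate, and FABP4 went from 12.04% to 50.3%. FABP3 held 6.30% and then 8.13%. The members took 0.0496% of all counts in control cells and 0.153% with bezafibrate.

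**Figure D4:**
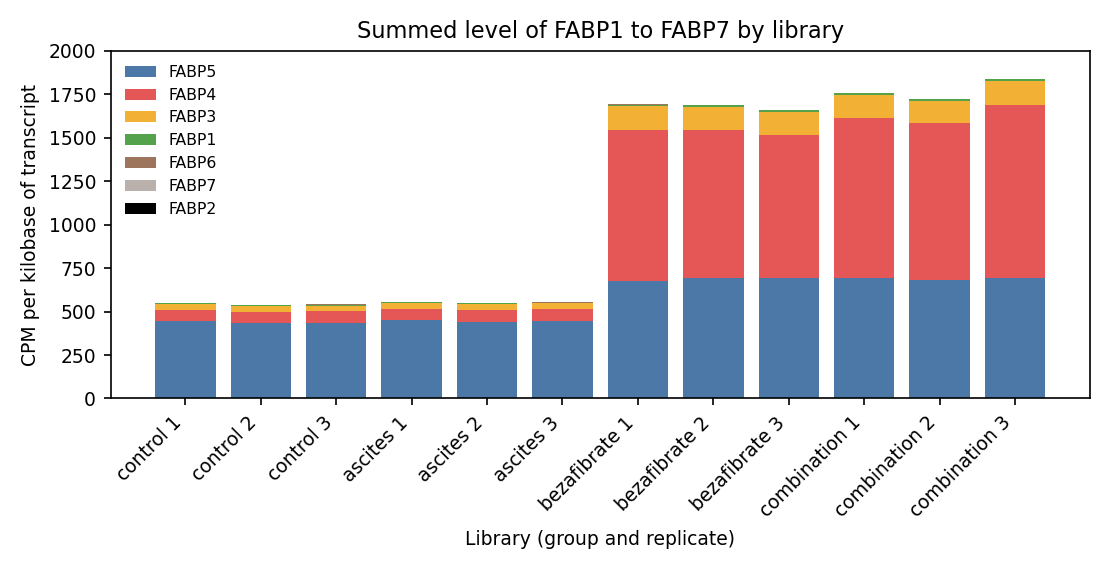
Level of FABP1 to FABP7 in each of the 12 libraries, in CPM per kilobase of transcript, stacked by member on an axis that starts at 0; FABP2, FABP6 and FABP7 are too low to be read. The group means of the sum are 544 for control, 553 for ascites, 1681 for bezafibrate and 1775 for the combination, with FABP5 as the largest share in libraries without the drug and FABP4 in those with it.

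Sequence before the transcription start was read for 5 members (FABP1, FABP2, FABP3, FABP6 and FABP7), as the 250 bases upstream of a RefSeq start in GRCh38.p14. FABP4 and FABP5, which also rose with the drug, had no window at hand and were not searched. The windows of FABP6 (chr5:160229256-160229505) and FABP7 (chr6:122779466-122779715) lie inside the gene spans given above. For these genes they therefore do not precede the outermost start. FABP1 and FABP3 are shown because both rose with the drug. FABP1 lies at chr2:88128063-88128312 on the minus strand and FABP3 at chr1:31373077-31373326 on the minus strand, each written 5′ to 3′ along the gene; capitals mark TGACCT, the reverse complement of AGGTCA, and TATAAA.
FABP1: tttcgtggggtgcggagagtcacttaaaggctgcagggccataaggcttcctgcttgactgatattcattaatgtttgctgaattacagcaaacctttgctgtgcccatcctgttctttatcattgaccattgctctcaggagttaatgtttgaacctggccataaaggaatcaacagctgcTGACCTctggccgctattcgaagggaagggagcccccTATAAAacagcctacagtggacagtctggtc
FABP3: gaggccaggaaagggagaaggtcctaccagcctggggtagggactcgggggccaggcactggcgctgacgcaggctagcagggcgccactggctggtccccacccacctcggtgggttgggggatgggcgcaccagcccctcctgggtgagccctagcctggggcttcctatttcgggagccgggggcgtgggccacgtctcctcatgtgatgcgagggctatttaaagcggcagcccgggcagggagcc
The search covered both strands for AGGTCA, the hexamer that PPAR and related receptors recognise; for AGGNCANAGGNCA, 2 such hexamers spaced by 1 base as PPAR with RXR binds; and for TATAAA, a core promoter element. The first and second overlap, since AGGTCA can be part of the longer motif. FABP1 held AGGTCA, which began at position -68 (68 bases before the start), and TATAAA, at position -31. FABP3 held none of the 3. AGGTCA was in 12.1% of all 35116 windows of that length and in 1 of the 5 members' windows, AGGNCANAGGNCA in 0.268% and in 0 of 5, and TATAAA in 10.7% and in 2 of 5, FABP1 and FABP6. The match in FABP6 was on the strand opposite to the gene. Only exact matches were counted, so a site that differs from these letters at any fixed base was not found. A match is a description of letters in these windows.

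FABP4 and FABP5 lie in a cluster of 5 protein-coding genes on chromosome 8, over 309604 bases, with PMP2 (myelin FABP), FABP9 and FABP12 between or beside them. PMP2 had 29 counts, FABP9 had 1 and FABP12 had 0 over the 12 libraries, so nearly all counts of the cluster were those of FABP4 and FABP5. PAG1, the neighbour of FABP5 outside the family, lies 168468 bases from it. PAG1 rose by a log2 fold change of 0.65 with bezafibrate (54.1 to 84.9 CPM, edgeR adjusted p = 4.76e-14) and by 0.67 with ascites present. Across all members, 13 neighbouring genes had values and 9 were tested: 4 were called with bezafibrate alone, 3 of them higher, and 5 with ascites present, 4 of them higher. Over all genes tested, 10.1% were called higher and 7.55% lower with bezafibrate alone, and 10.5% and 7.29% with ascites present. SERINC2, 36701 bases from FABP3, rose by 0.88 and 0.74. PKIB, 22828 bases from FABP7, rose by 0.77 and 0.71, and PDE5A, 172265 bases from FABP2, fell by 0.41 and 0.44. PWWP2A, beside FABP6, was called with ascites present, at 0.26, and stood at 0.12 without it (edgeR adjusted p = 0.198), while no gene was called in the interaction. ZCCHC17 overlaps the span of FABP3 but shares no exon bases with it; it was not called, at -0.05 without ascites (edgeR adjusted p = 0.686) and 0.19 with it (0.0631). The second value was called with no filter on low counts (0.0365), without ascites replicate 3 (0.0131) and without combination replicate 1 (0.0215).

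For each of the 4 members that rose, the genes closest in pattern over the 12 libraries were taken from 11921 genes with at least 1 CPM, by the root mean square distance of log2 CPM centred on each gene's mean. FABP4 was closest to ANGPTL4 (distance 0.0891, Pearson r = 0.999 over 12 libraries), PDK4 (0.187), PLIN4 (0.239), PLIN2 (0.515) and LRRC31 (0.535). FABP3 was closest to SLC38A4 (0.0506) and CREB3L3 (0.0695), then AQP3, HR and SOX8. FABP1 was closest to MAPRE3 (0.105, r = 0.990), then TIMP3, FOXQ1, GLP2R and SHH. FABP5 was closest to RETSAT (0.0401), then IMPDH1, CYP2B6, ETFA and ACAA2. The r is a description: the 12 libraries form 4 groups, and 302 to 404 genes reached r of at least 0.95 with each of these members, since many genes differ between the groups with and without the drug.

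Of the 10 listed nuclear receptors (the PPARs, RXRs, retinoic acid receptors and NR1H4), 8 were tested. In both drug contrasts 2 of them rose and 2 fell. Of all genes tested, 10.1% were called higher and 7.55% lower without ascites, and 10.5% and 7.29% with it. PPARD rose by 0.62 and by 0.47 with ascites present, and RARA by 0.36 and 0.45. PPARG fell from 89.8 to 68.8 CPM (-0.39, and -0.37 with ascites) and RARB fell by 0.65 and 0.73. PPARA, at 4.82 CPM in control cells, was at 0.09 (edgeR adjusted p = 0.777), and RXRA, RXRB and RARG, at 64.3, 27.9 and 28.5 CPM in control cells, were not called either. NR1H4, the bile acid receptor, had 12 counts in all. None of the listed genes was called in ascites against control or in the combination against bezafibrate.

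Of the genes for fatty acid uptake and activation to acyl-CoA, 5 of 11 tested rose and 1 fell in both drug contrasts (15 listed), with a median of 0.38 without ascites and 0.40 with it. Among all genes tested the median was -0.0037 in each, with 10.1% called higher and 7.55% lower without ascites. With ascites those shares were 10.5% and 7.29%. ACSL1, an acyl-CoA synthetase, rose by 1.77 (SE 0.0998) and 1.38, ACSL5 by 1.35 and 1.27, SLC27A4 by 0.44 and 0.46 and ACSL3 by 0.42 and 0.40, log2 fold changes. SLC27A2 (0.32 and 0.40) and CAV1 (-0.27 and -0.22), named after their values were seen, were the other calls. CD36, the scavenger receptor for fatty acids, had 57 counts over the 12 libraries.

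Of the PPAR target genes outside the family, 14 of 15 tested rose in each drug contrast (21 listed), with a median of 0.97 in each and -0.0037 over all genes. Over all genes tested, 10.1% were called higher without ascites and 10.5% with it. The list was chosen with earlier results of these data known. PDK4, which restrains glucose oxidation, rose by 4.07 and 4.07, ANGPTL4, an inhibitor of lipoprotein lipase, by 3.60 and 3.65, PLIN4, a lipid droplet coat protein, by 3.56 and 3.72 and PLIN2, another, by 2.73 and 2.72, with edgeR adjusted p of at most 8.50e-24. The uncalled gene was CPT2 without ascites (0.14, edgeR adjusted p = 0.158) and EHHADH with it (0.23, adjusted p = 0.115 in edgeR), both named after their values were seen. EHHADH without ascites was itself at 0.27 (edgeR adjusted p = 0.0465), a call lost without control replicate 1 or 3, ascites replicate 1, bezafibrate replicate 1, 2 or 3, or combination replicate 2 (adjusted p 0.0509 to 0.305), with upper-quartile scaling (0.0654), with the replicate block (0.0658) and in DESeq2 (0.123). CPT2 with ascites (0.22, edgeR adjusted p = 0.0163) lost its call without ascites replicate 2 (0.0712) or combination replicate 2 (0.0549), and in DESeq2 (0.0723).

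Across all genes tested, calls were again 10.1% higher and 7.55% lower without ascites, and 10.5% and 7.29% with ascites present. The median log2 fold change over all genes was -0.0037 in each. Of the acyl-CoA carriers outside the family, 2 of 7 rose with bezafibrate alone, DBI by 0.48 and ACBD5 by 0.20, with a median of 0.06. With ascites present both rose again, by 0.61 and 0.25, and the median was 0.02. Then 1 gene fell, ACBD7 (-0.38, edgeR adjusted p = 0.0296), named after its values were seen. Its call was lost without ascites replicate 1 (0.128) or 2 (0.0818), or combination replicate 2 (0.0855) or 3 (0.130), and in DESeq2 (0.0784). Of 6 tested lipolysis genes, 2 rose and 1 fell without ascites and 3 rose with it (medians 0.14 and 0.22). LIPE, hormone-sensitive lipase and a binding partner of FABP4, rose by 0.40 and 0.29, and MGLL by 0.35 and 0.44. LIPE with ascites lost its call without ascites replicate 2 (edgeR adjusted p = 0.0614) or 3 (0.0900). LIPA, lysosomal lipase, fell by 0.18 without ascites, a call lost without control replicate 1 (0.114) or 3 (0.113), or bezafibrate replicate 1 (0.0814) or 3 (0.0954). ABHD5 rose by 0.33 with ascites, named after its values were seen, and that call was lost without ascites replicate 2 (0.0799) or 3 (0.0679), or combination replicate 1 (0.108) or 3 (0.101), and in DESeq2 (0.0914). Of the 2 tested genes of bile acid handling, ABCC3, an exporter, rose by 0.66 and 0.71 and NR0B2, a repressor, fell by 0.50 and 0.58 (6 listed). Among the other intracellular lipid-binding proteins, CRABP2, a retinoic acid carrier, was the only 1 of 9 tested, at 26.7 CPM in control cells and 24.2 CPM with bezafibrate (-0.14, edgeR adjusted p = 0.198).

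FABP4 is also a marker of adipocytes and macrophages, whose genes were read beside it; in bulk RNA, more cells of a type and more RNA per cell cannot be told apart. In the 2 drug contrasts 10.1% and 10.5% of all genes tested were called higher, and 7.55% and 7.29% lower. Of 9 adipocyte markers 3 were tested, and CIDEC (1.60 and 1.73) and AQP7 (1.80 and 2.10) rose in the 2 drug contrasts. CFD, the other tested marker, was not called, at -0.20 and 0.04 (edgeR adjusted p = 0.507 and 0.925). It averaged 4.37 CPM in control cells and 3.79 CPM with bezafibrate. The summed level of the 9 was 8.57 to 9.54 CPM in control libraries, 8.62 to 9.18 with ascites, 17.3 to 20.1 with bezafibrate and 17.8 to 21.9 with both. ADIPOQ and CIDEA had no count in any library, LEP, LPL and TUSC5 had 1 each and PLIN1 had 17. Of 10 macrophage markers 2 were tested and none was called; CD163, TYROBP and PTPRC had no count, and the sum was 3.17 to 4.64 CPM in control libraries and 3.34 to 5.00 CPM with bezafibrate. Of 8 endothelial markers EGFL7 alone was tested, and it rose by 0.40 without ascites (edgeR adjusted p = 0.0267), while KDR had no count and CDH5 had 1. Its call was lost without control replicate 1 (0.0734) or 3 (0.213), or bezafibrate replicate 1 (0.0614), 2 (0.0526) or 3 (0.0773), and in DESeq2 (0.0860). With ascites present it was at 0.31 (edgeR adjusted p = 0.105), called only without combination replicate 3 (0.0404). Of 6 mesothelial markers 2 were tested and none was called. Of 6 fibroblast markers 3 were tested and fell, with COL3A1 at -0.71, COL1A1 at -0.68 and LUM at -0.17, and COL1A2 had 2 counts and DCN 3. LUM with ascites present (-0.13) lost its call without ascites replicate 1 (edgeR adjusted p = 0.0817) or combination replicate 2 (0.119).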

How the data were processed

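RNA was sequenced from 12 libraries of CAOV3 cells in 4 groups of 3, named from the labels. The authors deposited estimated counts per gene as whole numbers, 1 table per library, not normalized. The submitters' processing notes name Trimmomatic 0.39, STAR 2.7.9a, RSEM 1.3.3, DESeq2 1.28.1 and the build GRCh38, and RSEM estimates counts, so the values were treated as such. Roles of these tools, the annotation and strandedness are not given in the sources used here.

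Genes were kept by filterByExpr (minimum count 10, minimum total 15), which left 12470 and removed 7207. In edgeR 4.0.16 (R 4.3.3), libraries were scaled by TMM and all 12 entered 1 quasi-likelihood fit with 1 mean per group (8 residual degrees of freedom), tested with glmQLFTest. A call is a Benjamini-Hochberg adjusted p under 0.05 over all genes tested. CPM are TMM-scaled; distances between patterns used log2 CPM (prior count 2). The fit was tested on simulated data with known changes in the drug groups.

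The rule for named genes took all 7 members (the 5 tested ones in each contrast), from each list the up to 4 called genes of largest change with bezafibrate (mean at least 1 CPM), optionally any tested receptor or lipid-binding protein, the 5 genes most like each called member, and neighbours on the chromosome. Members and lists were chosen with earlier results of these data known. Positions and upstream sequence are RefSeq (GRCh38.p14), and transcript lengths GENCODE 29. Alternatives were other scalings, DESeq2 1.42.0, other filters, 2 groups only, a replicate block and each library left out. Totals of 11831093 to 18762759 counts leave counting error small for FABP3, FABP4 and FABP5, and larger for FABP1 (45 to 72 counts in each library without bezafibrate), FABP6, FABP7 and FABP2.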

Additional observations from a re-analysis of the deposited data

How the results depend on the processing

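The members called did not change with the setting in bezafibrate against control and in the combination against ascites (4 in each of 19 settings) or in ascites against control (0). Of the 25 member results, 21 kept direction and call under every alternative run. The combination against bezafibrate gave 1 member called, 0 with only the 2 groups in the fit, and 0 to 1 with a library left out. Reversed, and never called, were FABP3 in the interaction (-0.0310 to 0.0201 with a library left out), FABP6 in the combination against ascites (-0.0747 to 0.198) and FABP5 in the combination against bezafibrate (-0.0106 to 0.0107); also CRABP2 in the combination against ascites (-0.0114 to 0.109), PPARA (-0.0142 to 0.175) and ACBD7 (-0.108 to 0.0749) in bezafibrate against control. The cause was not tested.

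Over all genes, ascites against control called 11 genes, 59 with no filter on low counts, 33 with only the 2 groups and 3 to 24 with a library left out. The combination against bezafibrate called 16 genes, 52 with no filter, 7 with only the 2 groups and 9 to 28 with a library left out. The interaction called 0 genes, 36 with no filter, 1 with DESeq2, 1 with the replicate block and 0 to 3 with a library left out. Same-numbered libraries did not deviate together (r from -0.135 to 0.0613 over 18 pairs, 0 over 0.1), and 1 of 12 libraries correlated best with its own number. Pairs with different numbers had r from -0.0709 to 0.179. With 3 libraries per group, these values cannot tell whether the numbers pair the samples. The replicate block changed no member's call; of the other genes named it ended that of EHHADH with bezafibrate alone (adjusted p = 0.0658 in edgeR). Summing FABP5 with its pseudogenes was not run. Depth limits FABP1 without the drug, FABP6, at 14 to 31 counts per library, and FABP2 and FABP7, which were not tested.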
